A study of Mus musculus with 22 samples.

Results

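The expression of 10 transcription factor genes of the B lineage, Pax5, Ebf1, Ikzf1, Ikzf3, Foxo1, Bach2, Spi1, Irf8, Klf2 and Tcf3, was followed in splenic immature B cells (B220+CD93+) of mice with and without γδ T cells. The genes were chosen by symbol, as factors of the lineage, with earlier results of these data known. All 10 were present in each of the 3 tables of normalized read counts, which hold 21880 genes for experiment 1, 26097 for experiment 2 and 25676 for the culture experiment, and all 10 passed the minimum mean of 10 normalized counts that was set for testing. In experiment 1, 3 libraries came from Tcrd-GDL mice given diphtheria toxin (the depleted group) and 3 from Tcrd-GDL mice left untreated. In experiment 2, 2 libraries came from depleted Tcrd-GDL mice, 3 from Tcrd-H2BeGFP mice given the same toxin (the toxin control) and 5 from untreated Tcrd-GDL mice. In the culture experiment, immature B cells sorted from Tcrd-H2BeGFP mice without toxin were cultured with γδ T cells (3 libraries) or alone (3 libraries). Mice received toxin intraperitoneally on 2 occasions with 48 h between them, each time at 15 ng per g of body weight, and were analysed on day 8 after the first. As background, Tcrd-GDL mice carry a reporter with a diphtheria toxin receptor at the T cell receptor delta locus, so toxin removes their γδ T cells, whereas Tcrd-H2BeGFP mice carry a histone 2B-eGFP reporter at that locus. No source used here gives the age and sex of the mice, the number of sorted cells, the length of the culture or whether libraries came from separate animals. Each p-value therefore rests on the spread among these libraries alone, which may be technical. The strain of the toxin control differed from that of both other groups of experiment 2.

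As background, B cell identity is set up by a cascade in which the E protein Tcf3 (E2A) and Foxo1 act with Ebf1, Ebf1 activates Pax5, and Pax5 then holds the lineage by activating B cell genes and repressing those of other lineages. Ikzf1 (Ikaros) and Ikzf3 (Aiolos) are zinc finger factors that silence pre-B cell receptor genes, Spi1 (PU.1) and Irf8 bind composite ETS-IRF elements together, Bach2 represses the plasma cell gene Prdm1, and Foxo1 and Klf2 drive genes of recombination, such as Rag1, and of homing. Immature cells that have just reached the spleen pass through transitional stages marked by Cd93 while Rag1, Myb and Sox4 decline and Ighd and Fcer2a increase.

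The 10 genes span very different lengths of the mouse genome (GRCm38, GENCODE annotation), a property that comes back in the results of experiment 2. Ebf1 lies on the plus strand of chr11:44617317-45008091 (391 kb), Bach2 on the plus strand of chr4:32238804-32586108 (347 kb) and Pax5 on the minus strand of chr4:44524757-44710487 (186 kb). Of intermediate length were Ikzf1 on the plus strand of chr11:11685003-11772926 (87.9 kb), Foxo1 on the plus strand of chr3:52268336-52353221 (84.9 kb) and Ikzf3 on the minus strand of chr11:98464902-98546031 (81.1 kb). Shorter were Spi1 on the plus strand of chr2:91082390-91115756 (33.4 kb), Tcf3 on the minus strand of chr10:80409514-80433647 (24.1 kb) and Irf8 on the plus strand of chr8:120736358-120756694 (20.3 kb), and Klf2 on the plus strand of chr8:72319033-72321656 (2.62 kb) was the shortest.

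Promoter windows are shown for Ebf1, Ikzf1, Bach2 and Foxo1, because these 4 genes moved together in experiment 2. Each window holds 250 bases before and 50 bases after an annotated start (RefSeq, GRCm38.p6), written 5′ to 3′ on the strand of the gene, with capitals marking matches on either strand to any of 8 motifs: the E-box CANNTG, the EBF core CCCNNGGG, the Ikaros core TGGGAA, the ETS core GAGGAA, the ETS-IRF composite (GGAA and GAAA with 2 bases between them), the FOXO motif TGTTTAC, the KLF motif CACCC and the AP-1-like TGANTCA. Entries were found for 8 of the 10 genes, in 11 windows, and not for Ikzf3 and Spi1. The window of Bach2 and both windows of Ebf1 and of Ikzf1 lie inside the gene spans given above. Whether these cells use these starts was not tested.
Ebf1 (chr11:44617850-44618149, plus strand): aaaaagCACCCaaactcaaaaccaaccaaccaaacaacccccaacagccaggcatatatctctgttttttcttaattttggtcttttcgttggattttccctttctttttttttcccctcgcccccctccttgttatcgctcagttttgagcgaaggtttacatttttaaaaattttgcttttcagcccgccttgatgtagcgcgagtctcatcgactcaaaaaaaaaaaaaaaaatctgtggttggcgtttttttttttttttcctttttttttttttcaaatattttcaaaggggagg
Ebf1 (chr11:44619978-44620277, plus strand): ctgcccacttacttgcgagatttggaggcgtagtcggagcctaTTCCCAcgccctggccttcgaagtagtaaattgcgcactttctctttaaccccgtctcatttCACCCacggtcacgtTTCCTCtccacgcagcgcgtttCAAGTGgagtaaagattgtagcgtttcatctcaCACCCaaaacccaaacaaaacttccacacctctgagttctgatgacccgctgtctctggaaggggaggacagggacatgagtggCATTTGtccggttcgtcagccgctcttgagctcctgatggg
Ikzf1 (chr11:11685675-11685974, plus strand): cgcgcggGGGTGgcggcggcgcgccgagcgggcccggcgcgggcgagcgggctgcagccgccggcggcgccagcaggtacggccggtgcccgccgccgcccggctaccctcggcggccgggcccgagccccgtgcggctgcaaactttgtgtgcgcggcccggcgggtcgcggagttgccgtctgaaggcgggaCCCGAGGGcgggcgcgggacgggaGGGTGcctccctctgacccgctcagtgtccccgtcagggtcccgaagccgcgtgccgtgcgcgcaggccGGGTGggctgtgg
Ikzf1 (chr11:11689927-11690226, plus strand): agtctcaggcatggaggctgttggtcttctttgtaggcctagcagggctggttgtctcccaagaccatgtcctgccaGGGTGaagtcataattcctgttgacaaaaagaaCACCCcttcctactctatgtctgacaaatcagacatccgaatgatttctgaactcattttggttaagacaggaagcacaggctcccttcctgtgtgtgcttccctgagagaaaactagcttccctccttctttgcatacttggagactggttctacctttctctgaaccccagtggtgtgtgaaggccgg
Bach2 (chr4:32417185-32417484, plus strand): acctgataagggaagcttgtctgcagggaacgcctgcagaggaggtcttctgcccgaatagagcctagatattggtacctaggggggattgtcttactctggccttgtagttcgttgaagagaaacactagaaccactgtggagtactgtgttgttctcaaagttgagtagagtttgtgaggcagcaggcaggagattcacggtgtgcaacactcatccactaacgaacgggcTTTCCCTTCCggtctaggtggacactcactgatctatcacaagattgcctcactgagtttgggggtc
Foxo1 (chr3:52268087-52268386, plus strand): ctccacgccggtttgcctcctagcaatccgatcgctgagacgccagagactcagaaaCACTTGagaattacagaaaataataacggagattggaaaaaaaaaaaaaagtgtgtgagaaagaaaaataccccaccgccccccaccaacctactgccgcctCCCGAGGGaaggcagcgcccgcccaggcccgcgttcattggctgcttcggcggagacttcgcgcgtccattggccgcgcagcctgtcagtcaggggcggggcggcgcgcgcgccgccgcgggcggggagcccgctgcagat
No motif of the 8 occurred in the windows of all 4 genes. The EBF core was found once in Foxo1 and once in the first Ikzf1 window, and in 13.67% of 32851 promoter windows of the genome. The ETS-IRF composite was found once, in Bach2, and in 2.715% of all windows. CACCC was found in both Ikzf1 windows and both Ebf1 windows, and in 57.52% of all windows. The second Ebf1 window held 2 E-boxes and Foxo1 held 1, a motif present in 72.31% of all windows. That second Ebf1 window also held 1 Ikaros core (25.56% of all windows) and 1 ETS core (28.28%), whereas the FOXO motif (3.65% of all windows) and the AP-1-like motif (7.808%) had no match in these 6 windows. A match describes these letters and is not a measured binding site.

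Experiment 1 had 9794413 to 20343954 recovered reads per library, experiment 2 had 22022330 to 36840455 and the culture experiment 17505909 to 28729574. The 10 genes had between 360 reads (Spi1) and 14869 reads (Ikzf3) in a library, so that counting error alone was at most 5.27% of a value and the spread between libraries sets the precision. Replicates of a group differed by more than sampling noise in all 26 pairs, with the chi-square per degree of freedom at 5.2 or more. The γδ T cells themselves were not in the sort, and Trdc is not listed in the tables, so these libraries do not show whether the depletion worked. B cell markers were present in every group: Cd79a, Cd79b, Ptprc, Ms4a1, Ighm and Cd93 were above 0 and tested in all 3 tables.

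Per kb of exon, the 10 factors fell into 3 ranges in untreated cells of experiment 2 (mean normalized count per kb of exon ± SD, n = 5). Klf2, a factor of quiescence and homing, was by far the most abundant at 5623 ± 306, and its lowest library was above the highest of any other member. Ikzf1 at 1323 ± 82.9, Irf8 at 1249 ± 49.5, Ikzf3 at 1101 ± 29.7 and Tcf3 at 1071 ± 105 came next. In that second range Ikzf1 and Irf8 overlapped in their libraries and so did Ikzf3 and Tcf3, whereas Irf8 was above Ikzf3 in all libraries. Foxo1 at 518 ± 39.7, Bach2 at 511 ± 65.6, Ebf1 at 508 ± 38.8, Pax5 at 489 ± 18.8 and Spi1 at 450 ± 40.1 formed the lowest range, and neighbours in this order overlapped.

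Depletion of γδ T cells was first compared within experiment 1 (3 depleted and 3 untreated libraries). None of the 10 factors passed the test (limma on log2(value + 1), Benjamini-Hochberg adjusted p under 0.05 over all 11701 genes), and neither did any other gene (0% of genes called). At an unadjusted p under 0.05, 1033 genes and 0 of the 10 factors were counted, while edgeR called 0 genes and DESeq2 31, none of them among the 10. Bach2, the repressor of plasma cell differentiation, had 1996, 3222 and 3041 normalized counts in depleted libraries, against 3445, 3319 and 3245 in untreated libraries. It was the 1 factor of 10 whose groups did not overlap, as was the case for 15.2% of all genes, and its log2 fold change was -0.31 ± 0.16 (SE, n = 3 each; limma adjusted p = 0.604). Pax5 had 1728, 2159 and 2302 in depleted libraries, against 2043, 2098 and 1897 in untreated libraries. Ebf1 had 2359.9, 2955 and 2868 in depleted libraries, against 2624, 2477 and 2545 in untreated libraries. In both genes depleted replicate 1 was the lowest of the 6 libraries and depleted replicates 2 and 3 were above all untreated ones. Foxo1, with 1699, 2744 and 2496 in depleted libraries against 2598, 2217 and 2401 in untreated libraries, and Klf2, with 3300.5, 4769.5 and 4424 against 4219.9, 4985 and 4541, showed the same low value in depleted replicate 1. Irf8 was the most even of the 10, with 3679.8, 3771 and 3609 in depleted and 3627, 3728 and 3777 in untreated libraries. Across the 10 factors the log2 fold changes ran from -0.31 to 0.14 with a median of 0.01, against -0.01 over all genes tested, and the 95% intervals of the fold ran from 0.629 at the lowest bound to 1.36 at the highest.

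**Figure D1:**
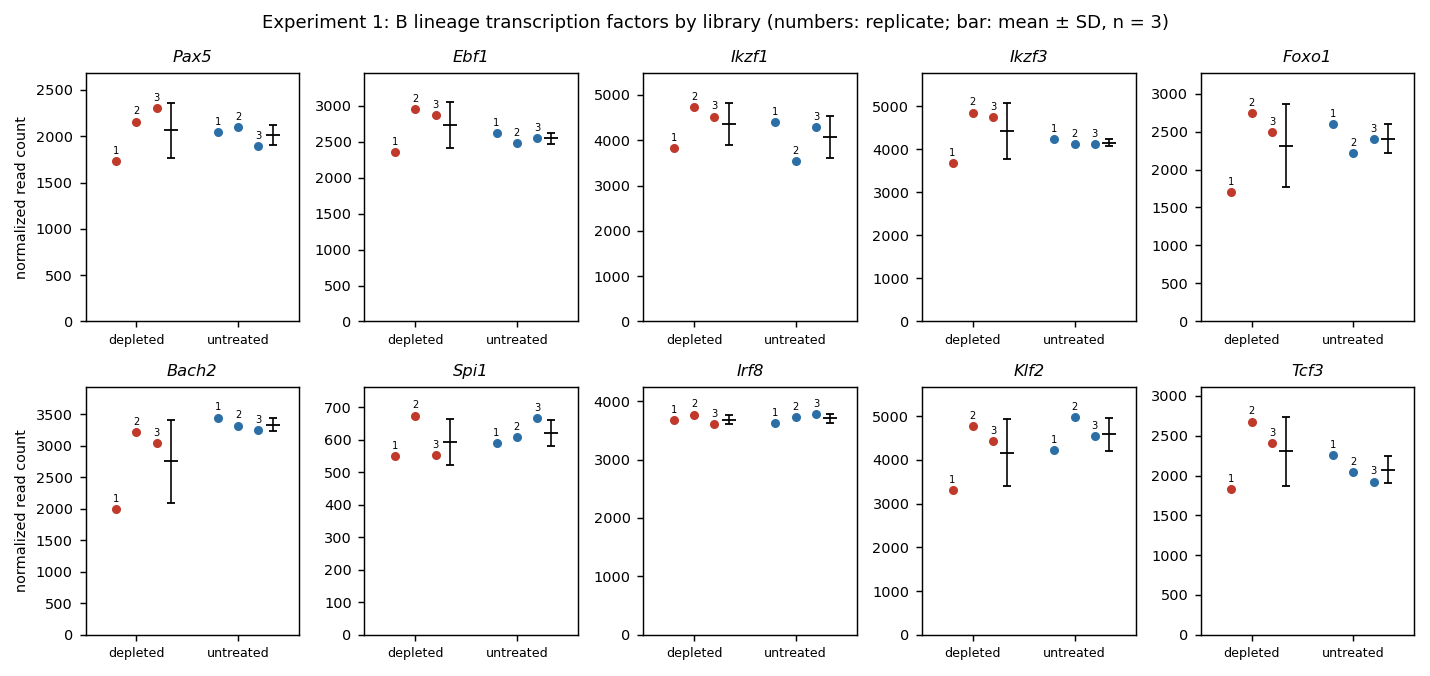
Normalized read count of each of the 10 factors (vertical axes from 0) in the 3 depleted and 3 untreated libraries of experiment 1, numbered by replicate, with the group mean ± SD as a bar. Depleted replicate 1 lies below the other 5 libraries for Pax5, Ebf1, Ikzf3, Foxo1, Bach2, Klf2, Tcf3 and, by a small margin, Spi1.

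In experiment 1, Irf8 stood at a log2 fold change of -0.026 to 0.0057 whichever single library was left out. Several other values depended on depleted replicate 1. Without it, 1097 genes were called and 1 of the 10 factors was among them: Tcf3 (E2A), with 1829, 2677 and 2411 in depleted and 2257, 2046 and 1923 in untreated libraries, at a log2 fold change of 0.29 ± 0.09 without that library (limma adjusted p = 0.0377) and 0.14 ± 0.14 with it (adjusted p = 0.794). Foxo1 moved to 0.12 without depleted replicate 1 and stood at -0.08 with it, and Bach2 moved to -0.09 and stood at -0.31 with it. The genes of over 200 kb had a lower median than those of under 10 kb in depleted replicate 1, a difference of -0.24 on the log2 scale, against -0.05 to 0.11 in the other 5 libraries. Whether that pattern had a part in the low values was not tested.

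In experiment 2 the depleted and untreated libraries (2 and 5) gave levels of the 10 factors that overlapped for 9 of them. Pax5, the keeper of B cell identity, had 4532 and 4065 normalized counts in depleted libraries, against a lowest of 4035, a median of 4370.3 and a highest of 4439 in untreated libraries. Ebf1 had 5219 and 5396 in depleted libraries, against 4848, 4786, 4476, 5311 and 5378 in untreated libraries. Foxo1 had 4157 and 4797 in depleted libraries, against 4610.2, 4367, 4042, 4442 and 4982 in untreated libraries. In each of these 3 genes the groups overlapped. None of the 10 passed the test, nor did they under edgeR or DESeq2, where 40 of 13364 genes did in limma (0.299%). These were 17 higher and 23 lower in depleted libraries, against 36 higher and 15 lower in edgeR and 75 higher and 62 lower in DESeq2, and their number in limma was 0 when depleted replicate 4 was left out and 580 when replicate 5 was. Ikzf3 (Aiolos) was the 1 factor whose groups did not overlap, as held for 12.3% of all genes, with 9194 and 8417 in depleted and 9771, 9966, 9686, 9413 and 9334 in untreated libraries and a log2 fold change of -0.13 ± 0.11 (SE; limma adjusted p = 0.768). The log2 fold changes of the 10 ran from -0.13 to 0.10 with a median of -0.01 (0.00 over all genes tested), and their 95% intervals reached a fold of 0.774 at the lowest bound and 1.25 at the highest. A p that misses the threshold does not show equal levels, and changes within these intervals could not be told from 0 here.

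Of 9 stage genes of immature cells, 1 rose and 2 fell in this comparison, and Cd93, part of the sorting gate, stood at -0.04 ± 0.14 (limma adjusted p = 0.955). Rag1, the recombinase that Foxo1 activates, fell to 44.3 ± 11.5 in depleted libraries, against 189 ± 74.3 in untreated libraries (log2 -1.99 ± 0.30, limma adjusted p = 0.0130). Myb, a factor of early B cell stages, fell to 1012 ± 117 in depleted libraries, against 1503 ± 146 in untreated libraries (log2 -0.57 ± 0.11, adjusted p = 0.0403). Ighd, the heavy chain of mature cells, rose to 18384 ± 4356 in depleted libraries, against 10637 ± 1157 in untreated libraries (log2 0.78 ± 0.13, adjusted p = 0.0209). Without depleted replicate 4, where 1 depleted library remained and was taken to vary like the other groups, none of the 3 passed (adjusted p = 0.294 for Rag1, 0.754 for Myb and 0.603 for Ighd). Myb also lost its call without untreated replicate 4, 6 or 7 (log2 -0.69 to -0.45 over all single libraries left out) and Ighd without untreated replicate 4, 5 or 7 (0.53 to 1.02). In experiment 1, none of the 8 tested stage genes passed, with Rag1 at a log2 fold change of -1.20, Myb at -0.79 and Ighd at 0.26 (limma adjusted p = 0.555, 0.443 and 0.798). Without depleted replicate 1 of experiment 1, Rag1 stood at -1.83, Myb at -1.04 and Ighd at 0.62, and these 3 of the 8 passed (limma adjusted p = 0.00320, 4.49e-05 and 0.00130). Of the 37 other B lineage transcription factors, Myb alone passed. Of 14 Foxo1 and Klf2 target genes, Rag1 alone passed, and of 16 genes that Pax5 and Ebf1 activate, 0 passed, with 3 at an unadjusted p under 0.05 in limma.

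The toxin control stood apart from both other groups of experiment 2. Against untreated libraries, 4 of the 10 factors rose in toxin control libraries (Ebf1, Ikzf1, Bach2 and Foxo1), in a comparison that called 15.7% of all genes and 7.32% of them as higher. Ebf1, the pioneer factor of the lineage, had 6179, 7888 and 7336 normalized counts in toxin control libraries, against 4848, 4786, 4476, 5311 and 5378 in untreated libraries (log2 0.52 ± 0.09, SE; limma adjusted p = 0.00460). Ikzf1 (Ikaros) had 9836, 11033 and 10151 in toxin control libraries, against 8148, 7608, 7259, 7096 and 8106 in untreated libraries (log2 0.44 ± 0.08, adjusted p = 0.00593). In both genes all 3 toxin control libraries were above all 5 untreated libraries, and replicate 1 was the lowest of the 3. Bach2 had 6065, 8188 and 7544 in toxin control libraries, against 4936, 5239, 4101, 5204 and 5904 in untreated libraries (log2 0.52 ± 0.12, adjusted p = 0.0110). Foxo1 had 5286, 6485 and 5978 in toxin control libraries, against 4610.2, 4367, 4042, 4442 and 4982 in untreated libraries (log2 0.40 ± 0.09, adjusted p = 0.0113). Again the groups did not overlap, and in each of the 4 genes toxin control replicate 2 was the highest library of the 10.

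The other 6 factors did not pass against untreated libraries. Pax5 came closest, with 4539, 6745 and 5068 in toxin control libraries, against 4439, 4426, 4035, 4359 and 4370.3 in untreated libraries (log2 0.31 ± 0.11, limma adjusted p = 0.0534). It is carried by replicate 2, and replicate 1 lies only just above the highest untreated library. Spi1 (PU.1) was at 0.25 ± 0.10, Tcf3 at 0.23 ± 0.09, Ikzf3 at 0.22 ± 0.10 and Irf8 at 0.14 ± 0.08. Klf2 alone had a negative value, -0.10 ± 0.08 (0.06 when the trend with gene span was removed), with 10087, 9641 and 9379 in toxin control libraries and 11002, 10693, 10179.9, 9526 and 10525 in untreated libraries. In 6 of the 10 factors the toxin control and untreated groups did not overlap, against 23.4% of all genes. The median log2 fold change of the 10 was 0.28, against 0.00 over all genes tested.

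Against the toxin control, whose 3 libraries also enter the comparison with untreated libraries, the same 4 factors fell in depleted libraries (9.07% of all genes called, 4.49% lower). Bach2 had 4327 and 5241 normalized counts in depleted libraries, against 6065, 8188 and 7544 in toxin control libraries (log2 -0.60 ± 0.15, SE; limma adjusted p = 0.0230). Ebf1 had 5219 and 5396 in depleted libraries, against 6179, 7888 and 7336 in toxin control libraries (log2 -0.42 ± 0.12, adjusted p = 0.0348). Both groups were apart in each gene. Foxo1 had 4157 and 4797 in depleted libraries, against 5286, 6485 and 5978 in toxin control libraries (log2 -0.40 ± 0.11, adjusted p = 0.0400). Ikzf1 had 7604 and 8537 in depleted libraries, against 9836, 11033 and 10151 in toxin control libraries (log2 -0.36 ± 0.10, adjusted p = 0.0442). The groups did not overlap for 7 of the 10 factors, where 42.1% of all genes had such groups. Ikzf3 at -0.35 ± 0.12 (adjusted p = 0.0794), Pax5 at -0.32 ± 0.13 (0.127) and Tcf3 at -0.29 ± 0.12 (0.124) did not pass, and Klf2 was at 0.05 ± 0.10 (-0.01 after quantile normalization and -0.14 with the trend with gene span removed). The 4 called factors kept the sign of their fold change whichever single library was left out, including fits that leave 1 depleted library. Bach2 stood at -0.74 to -0.46, Ebf1 at -0.52 to -0.34, Foxo1 at -0.50 to -0.30 and Ikzf1 at -0.44 to -0.27. The calls depended on the libraries: of the 10 factors, 3 passed without toxin control replicate 1, 0 without replicate 2 and 0 without replicate 3. Of all 13364 genes, 954, 236 and 550 passed in these fits, against 1212 with all libraries. When the depleted and toxin control groups were fitted alone, 0 factors and 451 genes passed. Against untreated libraries, 1 factor passed without toxin control replicate 2, 2 without replicate 3 and 5 without replicate 1. Genes passing there were 196, 806 and 1798 in the same order, against 2093 with all libraries.

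**Figure D2:**
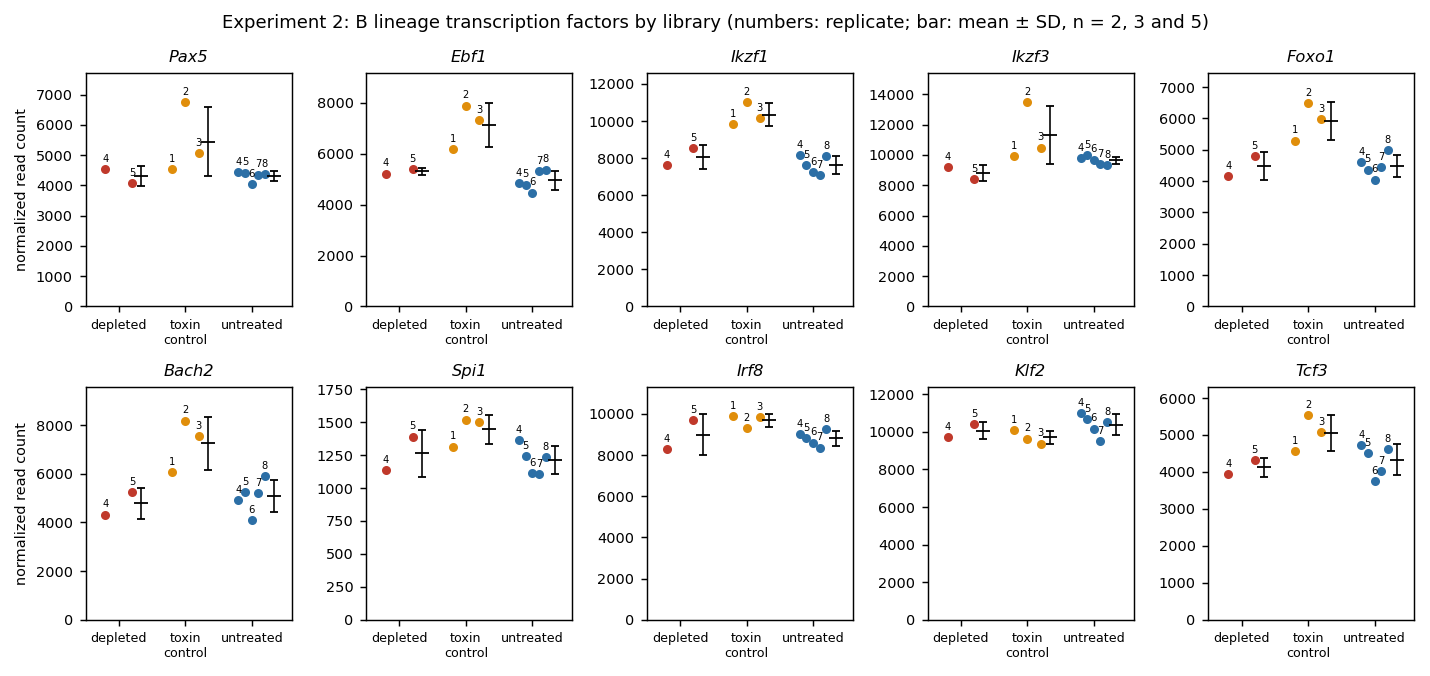
Normalized read count of each of the 10 factors (vertical axes from 0) in the 2 depleted, 3 toxin control and 5 untreated libraries of experiment 2, numbered by replicate, with the group mean ± SD as a bar. For Ebf1, Ikzf1, Foxo1 and Bach2 the toxin control libraries lie above all others, whereas the depleted and untreated libraries overlap.

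The size of these differences varied with the length of the genes. Across 10940 protein-coding genes, the log2 fold change of toxin control against untreated libraries rose with gene span (Spearman rho 0.40 across genes, which are not independent replicates). Its median was -0.18 for genes of under 10 kb, -0.03 from 10 to 30 kb, 0.09 from 30 to 100 kb, 0.20 from 100 to 200 kb and 0.29 over 200 kb. For depleted against toxin control libraries rho was -0.35 and the medians ran from 0.17 under 10 kb to -0.29 over 200 kb, whereas for depleted against untreated libraries rho was -0.04 in experiment 1 and -0.01 in experiment 2. Ebf1 and Bach2, the longest of the 10, had the highest values and Klf2, the shortest, the lowest, while Pax5, the third longest, stood below Ikzf1 and Foxo1. By library, the median of genes over 200 kb minus that of genes under 10 kb was -0.25 and -0.01 in depleted replicates 4 and 5, 0.13, 0.48 and 0.35 in toxin control replicates 1, 2 and 3, and -0.28 to 0.03 in untreated libraries. When the trend with span was taken out of each library, Ikzf1 was at 0.30, Foxo1 at 0.27 and Ebf1 at 0.22 for toxin control against untreated libraries and these 3 still passed, Bach2 was at 0.22 and did not (limma adjusted p = 0.0917), and against the toxin control 0 of the 10 passed in depleted libraries. This removal was chosen after seeing the data.

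**Figure D3:**
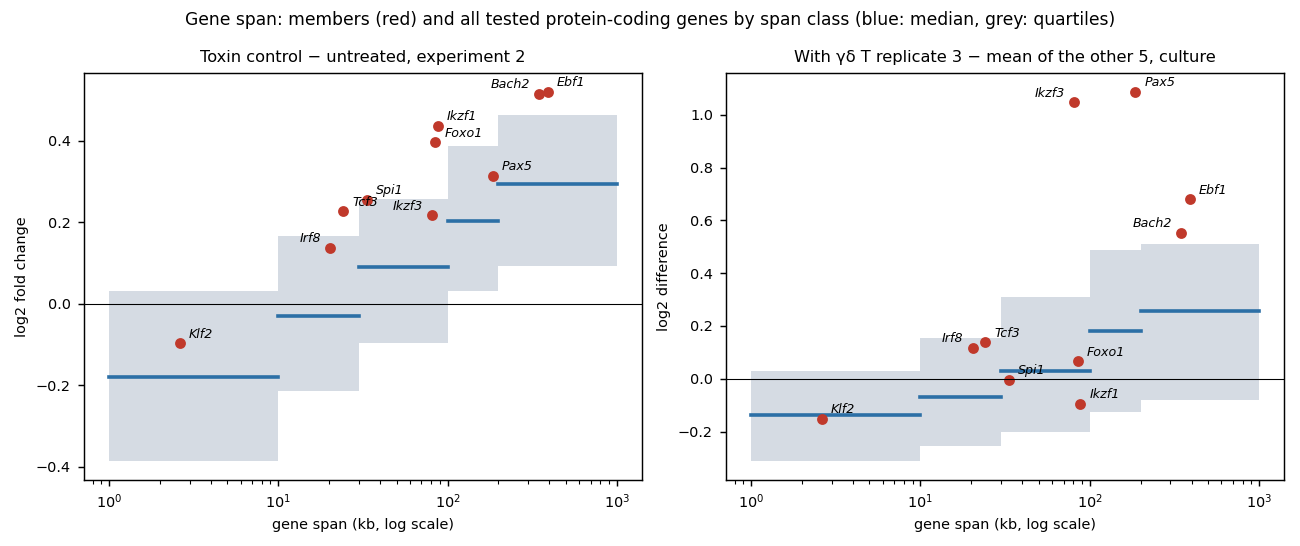
Left, log2 fold change of toxin control against untreated libraries in experiment 2, and right, log2 difference of replicate 3 of the cultures with γδ T cells from the mean of the other 5 culture libraries, each against gene span (log scale). Red points are the 10 factors, blue lines the median and grey areas the quartiles of tested protein-coding genes in 5 span classes, with the shortest and longest class drawn to the ends of the axis; the medians step upward with span in both panels.

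Some markers of other cells were higher in the toxin control as well, namely 5 of 14 T cell, 1 of 7 NK cell and 2 of 7 macrophage and monocyte markers tested, but 0 of 5 plasma cell markers. Of the 8 fits that left out a library, the NK cell call passed in 1 and the macrophage and monocyte calls in 6 and 2. Against the toxin control, depleted libraries had 3 of 14 T cell and 1 of 7 NK cell markers lower. Of 7 macrophage and monocyte markers 2 were lower, and 0 of these markers were higher. The calls against the toxin control did not hold without depleted replicate 4. All 14 T cell markers were above 0 in each group, and their summed level was 796 to 1041 in depleted libraries, 1574 to 2486 in toxin control libraries and 688 to 2062 in untreated libraries. The 7 NK cell markers summed to 98.7 to 202 in depleted libraries, 309 to 478 in toxin control libraries and 138 to 532 in untreated libraries. The 9 macrophage and monocyte markers summed to 1955 to 2190.2 in depleted libraries, 2214 to 2989 in toxin control libraries and 1211 to 2316 in untreated libraries. The 6 plasma cell markers summed to 6653 to 7631 in depleted libraries, 7666 to 15575 in toxin control libraries and 6734 to 9274 in untreated libraries. Of the γδ T cell list, Tcrg-C1 was at 0 in depleted and untreated libraries and the summed level was at most 14.6 in any library of experiment 2. None of the 2 neutrophil, 7 dendritic cell and 8 erythroid and platelet markers tested passed between toxin control and untreated libraries. Immediate early genes, which respond to handling of cells, moved between toxin control and untreated libraries too: 4 of 9 tested fell. Among them, Fosb fell to 234 ± 32.6 in toxin control libraries, against 477 ± 120 in untreated libraries (log2 -0.99 ± 0.19, limma adjusted p = 0.00580). For depleted against toxin control libraries 2 of 9 rose and 1 fell, and for depleted against untreated libraries 1 fell. The calls in these 2 comparisons did not hold without depleted replicate 4. The 11 immediate early genes summed to 12622 to 13290 in depleted, 11721 to 12735 in toxin control and 12538 to 15237 in untreated libraries. The part of these cells and of handling in the values of the 10 factors was not tested, and in sorted bulk RNA fewer cells of a kind cannot be told apart from less RNA per cell.

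Of the 9 stage genes, 3 rose in toxin control libraries against untreated ones, namely Rag1, Cd93 and Sox4 (log2 0.32 ± 0.10, which passed in 3 of the 8 fits that left out a library). Ighd, at 0.00 (limma adjusted p = 0.985), and Myb, at 0.02 (0.930), did not pass. Rag1 rose to 639 ± 76.5 in toxin control libraries, against 189 ± 74.3 in untreated libraries (log2 1.84 ± 0.26, limma adjusted p = 0.00187). Cd93, part of the sorting gate, rose to 2082 ± 286 in toxin control libraries, against 1189 ± 192 in untreated libraries (log2 0.81 ± 0.13, adjusted p = 0.00232). Of the other B lineage transcription factors, 17 of 37 rose and 1 fell, with a median of 0.28. Zeb2, a zinc finger repressor, was highest among those named at 4497 ± 391 in toxin control and 2584 ± 217 in untreated libraries (log2 0.80 ± 0.14, adjusted p = 0.00402), and Etv6, an ETS repressor, was at 583 ± 24.6 and 373 ± 44.3 (log2 0.65 ± 0.11, adjusted p = 0.00424). Without toxin control replicate 2 the count was 2 of 37 higher, and with the trend with span removed 7. Of 16 genes activated by Pax5 and Ebf1, 3 rose: the adaptor gene Nedd9 (0.47 ± 0.10), the MHC class II activator Ciita (0.34 ± 0.09) and the factor Lef1 (0.36 ± 0.10). None of the 3 passed without toxin control replicate 2, while over all single libraries left out Nedd9 stood at 0.41 to 0.54, Ciita at 0.27 to 0.42 and Lef1 at 0.32 to 0.40. Of 5 genes activated by PU.1 and Irf8, 1 rose, again Ciita, and 1 fell, P2ry10, to 3280.5 ± 477 in toxin control libraries, against 5719 ± 717 in untreated libraries (log2 -0.80 ± 0.14, adjusted p = 0.00390). P2ry10 kept its call whichever single library was left out. Of 14 Foxo1 and Klf2 target genes, Rag1 was the 1 that rose and 3 fell, Ccng2 (a cyclin gene, -0.33 ± 0.09) and Ccr7 (-0.26 ± 0.08) among them, and 0 fell without toxin control replicate 2 or with the trend with span removed. None of the 4 tested genes that Bach2 represses passed, nor did the 1 tested of those silenced by Ikaros and Aiolos.

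In the depleted libraries against the toxin control, the same lists gave 8 of 37 other transcription factors lower, with Zeb2 at -1.30 ± 0.17 (limma adjusted p = 0.000682), Sox4 at -0.66 ± 0.13 (0.00739) and Myb at -0.58 ± 0.12 (0.0117). Without depleted replicate 4, which leaves 1 depleted library, the count was 1 of 37 and Sox4 and Myb did not pass, while over all single libraries left out Sox4 stood at -0.76 to -0.59 and Myb at -0.70 to -0.47. Rag1 was at -3.84 ± 0.33 (adjusted p = 9.38e-06), the steepest of the named target genes, and kept its call whichever single library was left out. Of the 14 Foxo1 and Klf2 target genes, 2 rose and 2 fell, and 0 rose without depleted replicate 4 or toxin control replicate 2. Of genes activated by Pax5 and Ebf1, 3 of 16 fell, namely Nedd9 (-0.62 ± 0.12), the ETS factor gene Spib (-0.53 ± 0.15) and the B cell co-receptor gene Cd72 (-0.39 ± 0.12), and none passed without depleted replicate 4. Over all single libraries left out Nedd9 stood at -0.77 to -0.47, Spib at -0.83 to -0.22 and Cd72 at -0.57 to -0.22. Spib and Cd72 also did not pass without any one of the 3 toxin control libraries. Of the 9 stage genes, 1 rose and 5 fell. Cd93, part of the sorting gate, stood at -0.86 ± 0.16 (limma adjusted p = 0.00597) and Ighd at 0.77 ± 0.14 (0.00676). Over all single libraries left out Cd93 stood at -0.98 to -0.79 and Ighd at 0.53 to 1.02. The calls of Cd93 and Ighd and the counts of stage genes did not hold without depleted replicate 4. Of 5 genes activated by PU.1 and Irf8, 1 rose, P2ry10, at 0.96 ± 0.17 (adjusted p = 0.00547). In this comparison the call of P2ry10 did not hold without depleted replicate 4. Its log2 fold change was 0.64 to 1.28 over all single libraries left out.

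The culture experiment asked whether γδ T cells act on immature B cells outside the animal. None of the 10 factors passed between cultures with γδ T cells and cultures of B cells alone, where 2.16% of 12386 genes did. Groups did not overlap for 4 of the 10 (Pax5, Spi1, Irf8 and Klf2), against 18.4% of all genes. Irf8, the partner of PU.1, had 5055, 4871 and 4769 normalized counts with γδ T cells, against 4154, 3904 and 4114 alone (log2 0.27 ± 0.11, SE, n = 3 each; limma adjusted p = 0.315). All 3 libraries with γδ T cells were above all 3 alone, with little spread within either group. Klf2 had 3589, 4629 and 4215 with γδ T cells, against 4764, 5225 and 5443 alone (log2 -0.32 ± 0.13, adjusted p = 0.314). Spi1 had 825, 900.0 and 914 with γδ T cells, against 933, 1001 and 933 alone (log2 -0.12 ± 0.11, adjusted p = 0.743). The 3 libraries with γδ T cells were below those alone for both genes. The 95% intervals of the fold over all 10 reached 0.661 at the lowest bound, for Klf2, and 2.02 at the highest, for Pax5.

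Replicate 3 of the cultures with γδ T cells carried the high values. Pax5 had 1391, 1551 and 2832 with γδ T cells, against 1131, 1278 and 1345 alone (log2 0.55 ± 0.21, limma adjusted p = 0.278). Ikzf3 had 3015, 3268 and 6715 with γδ T cells, against 2918, 3481 and 3621 alone (log2 0.28 ± 0.24, adjusted p = 0.712). Replicate 3 with γδ T cells was far above the other 5 libraries in both, by 1.09 for Pax5 and 1.05 for Ikzf3 on the log2 scale. It was also the highest for Ebf1, with 1695, 1628 and 2768 with γδ T cells and 1502, 2065 and 1794 alone, and for Bach2, with 2978, 2877 and 4721 with γδ T cells and 2986, 3699 and 3651 alone. Ikzf1, with 3564, 3204 and 3389 with γδ T cells and 3777, 4111 and 3489.9 alone, showed no such value. In that library the protein-coding genes over 200 kb lay 0.26 above the mean of the other 5 in the median and those under 10 kb at -0.14. The median was 0.18 from 100 to 200 kb, the class of Pax5, and 0.03 from 30 to 100 kb, that of Ikzf3. The 4 high factors span 81.1 to 391 kb, a range that also holds Ikzf1, at -0.09 in that library, and Foxo1, at 0.07. Whether gene span had a part in these values was not tested. Without replicate 3, 664 genes passed (267 with it), Ebf1, Ikzf3 and Bach2 turned to -0.09, -0.08 and -0.23, Pax5 stood at 0.23 ± 0.10 (adjusted p = 0.236), and 1 of the 10 passed: Tcf3, with 1780.0, 1879.9 and 2321 with γδ T cells and 2206, 2411 and 2344 alone, at -0.34 ± 0.09 (adjusted p = 0.0408). With all libraries Tcf3 stood at -0.23 ± 0.13 (adjusted p = 0.509).

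**Figure D4:**
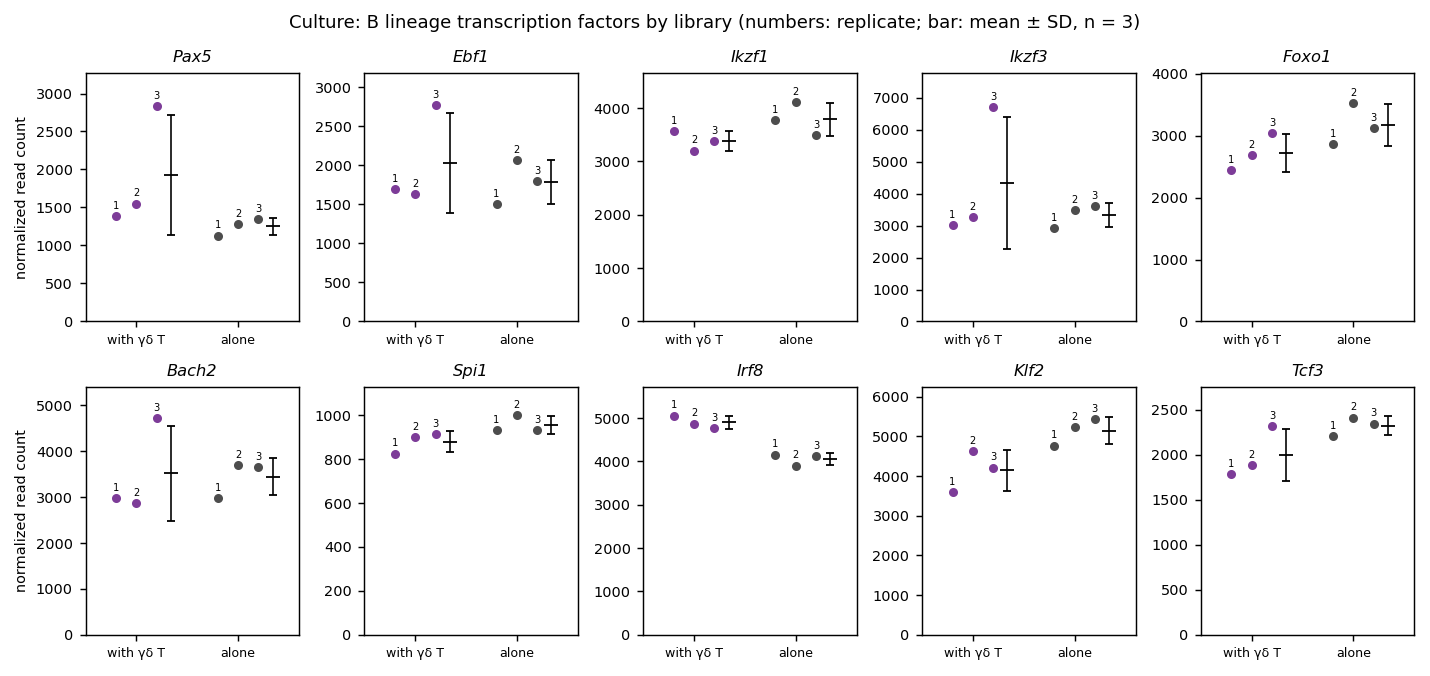
Normalized read count of each of the 10 factors (vertical axes from 0) in the 3 cultures with γδ T cells and the 3 cultures alone, numbered by replicate, with the group mean ± SD as a bar. Replicate 3 with γδ T cells lies above the other 5 libraries for Pax5, Ebf1, Ikzf3 and Bach2, and the groups of Pax5, Spi1, Irf8 and Klf2 do not overlap.

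Target genes of these factors were examined in culture as well. All 14 Foxo1 and Klf2 target genes had negative log2 fold changes (median -0.44, against 0.00 over all genes tested) and 3 fell, among them the lymph node chemokine receptor gene Ccr7 to 993 ± 110 with γδ T cells, against 1701 ± 55.4 alone (log2 -0.78 ± 0.12, limma adjusted p = 0.00439), and the integrin gene Itgb7 to 189 ± 38.6 with γδ T cells, against 345 ± 72.3 alone (log2 -0.86 ± 0.18, adjusted p = 0.0306). Ccr7 kept its call whichever single library was left out, whereas Itgb7 passed in 1 of the 6 fits that left out a library, the one without replicate 3 with γδ T cells. Of 5 genes activated by PU.1 and Irf8, 2 rose, Ciita to 4315 ± 1424 with γδ T cells, against 2128 ± 225 alone (log2 0.98 ± 0.19, adjusted p = 0.0174), and the germinal centre repressor gene Bcl6 to 1300.4 ± 208 with γδ T cells, against 729 ± 84.0 alone (log2 0.83 ± 0.14, adjusted p = 0.00856). Ciita lost its call when any one of the 3 libraries of B cells alone was left out (log2 0.72 to 1.11 over all single libraries left out), and Bcl6 when replicate 1 or 3 of these was left out (0.71 to 0.93). Of 16 genes activated by Pax5 and Ebf1, Ciita alone passed. Of the other transcription factors, 2 of 36 rose (Bcl6 and Xbp1, the secretory programme factor, at 1.07 ± 0.12, adjusted p = 0.000246) and 2 fell (Sox4 at -0.75 ± 0.14 and Myb at -0.52 ± 0.12). Without replicate 3 with γδ T cells these counts were 2 higher and 8 lower, and without replicate 1 or 2 with γδ T cells they were 2 higher and 0 lower. Of the 9 stage genes, 1 rose and 2 fell (Sox4 and Myb), while Ighd at 0.04 (limma adjusted p = 0.946), Rag1 at -0.48 (0.411) and Cd93 at -0.01 (0.990) did not pass. Fcer2a, the low-affinity IgE receptor gene of later transitional cells, rose to 2473 ± 322 with γδ T cells, against 836 ± 33.3 alone (log2 1.56 ± 0.12, adjusted p = 2.03e-05), and of 5 plasma cell markers tested 1 rose, again Xbp1, and 1 fell, Sdc1, to 142 ± 32.8 with γδ T cells, against 484 ± 58.9 alone (log2 -1.78 ± 0.17, adjusted p = 0.000107). The 14 T cell markers summed to 1127 to 1471 with γδ T cells and 856 to 969 alone, with Lck alone called higher (0.71 ± 0.15), a call that held in 1 of the 6 fits that left out a library. The γδ T cell list was near 0 in both, at most 5.26 with γδ T cells and 5.86 alone, with Tcrg-C1 and Tcrg-C4 at 0. The part of carried-over T cell RNA was not tested.

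**Figure D5:**
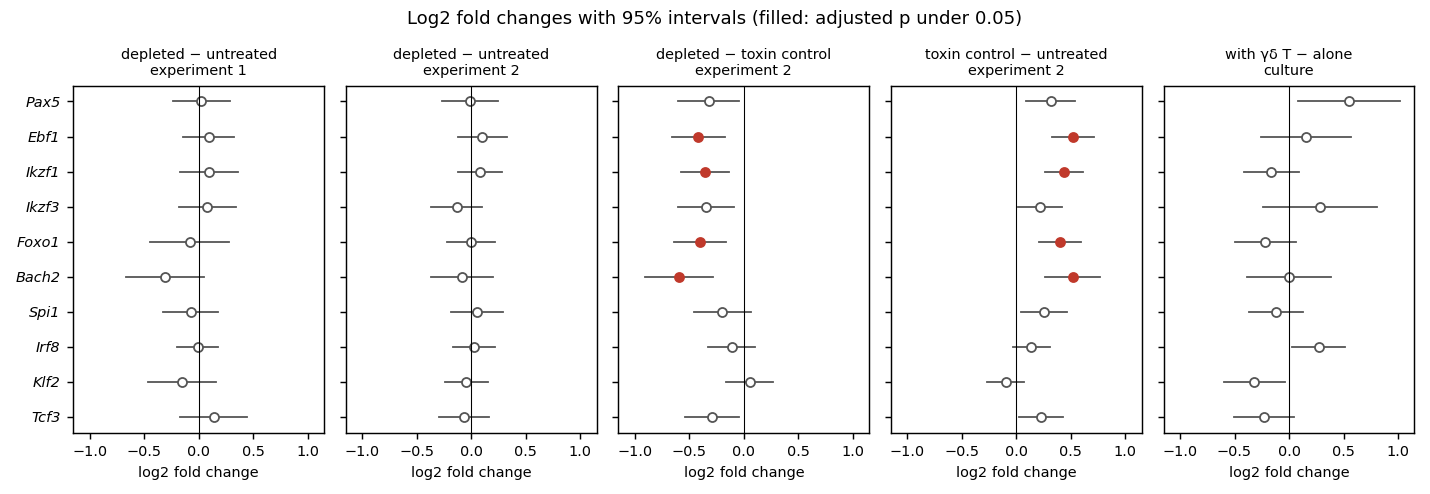
Log2 fold change with its 95% interval (horizontal axis) of the 10 factors in the 5 comparisons, with filled points at a limma adjusted p under 0.05. The points of both depleted against untreated comparisons lie between -0.31 and 0.14, and the filled points are Ebf1, Ikzf1, Foxo1 and Bach2 in the 2 comparisons with the toxin control, which share libraries.

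Across the 10 libraries of experiment 2 the factors also varied with each other, which is given as a description since libraries of 3 groups and their span trend enter it. The 6 factors of over 50 kb (15 pairs) had Pearson correlations of 0.67 to 0.98 on the log2 scale, highest for Foxo1 and Bach2, whereas pairs with 1 factor over 50 kb (24 pairs) ran from -0.63 to 0.91 and pairs with none (6 pairs) from -0.08 to 0.89. Klf2 had negative values with all 6 long factors, and every negative value involved Klf2. Among the other short factors, Spi1 and Tcf3 stood at 0.89, Spi1 and Irf8 at 0.80 and Irf8 and Tcf3 at 0.64. The lowest pair without Klf2 was Ikzf3 and Irf8, at 0.17. Among 9335 genes of a mean of at least 50, the closest to Foxo1 over these 10 libraries were Pik3cg (r = 0.993) and Pbrm1 (0.991). The closest to Ebf1 were Tet2 (0.988) and Dnajc13 (0.980), those to Ikzf1 Sf3b2 (0.987) and Arhgdia (0.983), and those to Bach2 Itgal (0.980) and Ice1 (0.978). Tcf3 was closest to St6gal1 (0.985) and Irgq (0.977), Pax5 to Prrc2c (0.976) and Tnrc18 (0.973), and Ikzf3 to Tnrc18 (0.955) and Rfc1 (0.954). Spi1 was closest to Tmed9 (0.976) and Fto (0.971), Irf8 to Irf5 (0.964) and Pdap1 (0.960), and Klf2 to Hopx (0.942) and Hnrnpf (0.917).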

How the data were processed

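Total RNA of sorted splenic immature B cells (22 libraries, 7 groups) was extracted with the RNeasy Plus Micro kit and, per the labels' protocols, converted to libraries with a SMART-Seq Stranded Total RNA kit. The submitters' processing notes name bcl2fastq, STAR 2.5.2b and build mm10; the counting tool, strand setting and normalization are stated in no source used here. Each deposited table holds a signal per gene, namely read counts that the authors normalized within that table, so groups were compared within a table and never across tables. Values were whole multiples of 1 read for 100% of entries in each library (tolerance 0.01), and reads recovered from them served edgeR and DESeq2 as alternatives; edgeR called 0 genes in experiment 1, 51 for depleted against untreated in experiment 2, 1189 for depleted against toxin control, 2101 for toxin control against untreated and 237 in culture.

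The test used was limma 3.58.1 (R 4.3.3, trend) on log2(value + 1), with a mean of at least 10, Benjamini-Hochberg adjustment over all tested genes and adjusted p under 0.05; the fold changes understate changes of low genes. The 3 groups of experiment 2 were fitted together. Alternatives were a pseudocount of 4, no filter, a mean of at least 50, quantile normalization, no trend, edgeR 4.0.16 and DESeq2 1.42.0 on recovered reads, fits of 2 groups, a replicate block, each library left out and, added later, removal of the trend with gene span. The limma script was tested on simulated data. The 10 genes and the gene lists were chosen with earlier results of these data known. Named genes are the 10, up to 3 called genes of each list with the smallest p, and Rag1, Cd93 and Ighd, apart from 2 list genes that are not reported here. Positions and spans come from GENCODE annotation of GRCm38, and Adgre1 and Jchain, listed under older symbols, were matched by gene ID.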

Additional observations from a re-analysis of the deposited data

Results flagged for a closer look

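Pax5 in untreated replicate 6 of experiment 2 had 4035 normalized counts, where the other 4 untreated libraries had 4359 to 4439. The gap to its nearest neighbour exceeded the 95% critical value of Dixon's test. The 10 factors were tested in this group of 5 libraries, 1 of the 10 was marked, and chance marks about 1 in 20. The SD of that group for Pax5 was 166, or 3.84% of the mean.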

How the results depend on the processing

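Leaving out the fits without a single library, 74 counts of genes or factors were within 1.5 times the reported count and 18 moved. For the 10 factors, 425 fold changes kept direction and side of the threshold, 19 lost and 6 gained a call, and 10 changed sign. The causes were not tested. Fits with fewer samples or more genes tested have less power by construction, but not all of them called fewer genes. Without a filter on low values, 2 genes passed in experiment 1, and 725 genes and 1 factor passed for depleted against toxin control. DESeq2 on recovered reads called 31 genes in experiment 1 and 137 for depleted against untreated in experiment 2. Without a trend in the variance, 3 genes passed for depleted against untreated, 94 genes and 0 factors for depleted against toxin control, 214 genes and 2 factors for toxin control against untreated, and 81 genes in culture. Fitting only the 2 groups compared called 5 genes for depleted against untreated in experiment 2, and 451 genes and 0 factors for depleted against toxin control. For toxin control against untreated it called 2618 genes and 5 factors, against 2093 genes and 4 factors when the 3 groups were fitted together. Removal of the trend with gene span left 0 factors for depleted against toxin control.

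No label ties the replicate numbers to a pairing of libraries. Deviations of same-numbered libraries correlated at -0.02, -0.04 and 0.05 in experiment 1 and at -0.07 and -0.11 in experiment 2. In culture they correlated at 0.20, -0.04 and 0.23, against -0.26 to 0.13 for differently numbered libraries. These values do not settle whether the numbers pair the libraries. With a replicate block, 0 genes and 0 factors passed in experiment 1, 150 genes and 0 factors for depleted against untreated in experiment 2 (replicates 4 and 5), and 448 genes and 1 factor in culture (Pax5, limma adjusted p = 0.0411). With the block, Spi1 stood at -0.051 for depleted against untreated in experiment 2.

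With each library left out in turn, factors passing ranged from 0 to 1 in experiment 1, 0 to 0 for depleted against untreated in experiment 2, 0 to 4 for depleted against toxin control, 1 to 5 for toxin control against untreated and 0 to 1 in culture. Genes passing ranged from 0 to 1097, 0 to 580, 39 to 2716, 196 to 2994 and 103 to 664 in the same order. In experiment 1 the log2 fold change ranged from -0.058 to 0.15 for Pax5, -0.22 to 0.12 for Foxo1, -0.026 to 0.0057 for Irf8 and -0.26 to 0.0069 for Klf2. For depleted against untreated in experiment 2 it ranged from -0.089 to 0.068 for Pax5, -0.0052 to 0.16 for Ikzf1, -0.11 to 0.10 for Foxo1, -0.22 to 0.056 for Bach2, -0.088 to 0.20 for Spi1, -0.089 to 0.14 for Irf8, -0.092 to 0.0034 for Klf2 and -0.13 to 0.00011 for Tcf3. For depleted against toxin control it ranged from -0.23 to 0.0034 for Irf8, and in culture from -0.093 to 0.29 for Ebf1, -0.083 to 0.49 for Ikzf3 and -0.23 to 0.13 for Bach2.

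Other changes of sign were small values. For depleted against untreated in experiment 2, Foxo1 stood at 0.0080 after quantile normalization, 0.00067 in edgeR, 0.0017 in DESeq2 and 0.011 with the span trend removed, where Pax5 stood at 0.0021. Klf2 stood at -0.013 (quantile normalization) and -0.14 (span trend removed) for depleted against toxin control, and at 0.058 (span trend removed) for toxin control against untreated. Bach2 stood at -0.016 in culture after quantile normalization.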
